A study of Mus musculus with 2 samples.

Results

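The 10 genes described here, Mrc1, Cd163, Folr2, Timd4, F13a1, Cbr2, Gas6, Pf4, Stab1 and Maf, are commonly used to recognise macrophages that live long term in a tissue. They were taken by gene symbol from a table of 33640 genes, and all 10 were found in it. The table gives the expression of these genes in mitral valve tissue of mice at 5 months of age. One wild-type library was compared with 1 library from mice heterozygous for Fbn1 C1039G, a missense allele of the fibrillin-1 gene carried by a mouse model of Marfan syndrome. Tissue from 8 hearts, male and female, was pooled for each library, so that differences between animals cannot be seen. With 1 pool per genotype no value has a replicate or an error, and every difference below is one between a pair of libraries, with no test. Values are TPM, the share of a gene among all transcripts of a library after correction for transcript length, so that levels of different genes can be set side by side. Differences are of log2(TPM + 1), and a positive sign means a higher value in mutant valves. On this scale 1 is a 2-fold difference, and differences of low genes are understated. Paired values name wild-type valves first, then mutant ones. The depth of the libraries is unknown, since TPM does not keep it.

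Macrophages of the heart and its valves come partly from cells seeded before birth that renew themselves in place and partly from blood monocytes that enter later. Resident cells carry scavenger and lectin receptors at their surface, take up dying cells and debris, and hold a programme that depends on CSF1 signalling and on Maf transcription factors. Monocytes and their recent progeny are instead marked by Ccr2. None of the 10 genes is fully restricted to macrophages. Gas6 is also made by fibroblasts and endothelium, Pf4 by megakaryocytes, whose platelets carry the transcript, F13a1 by the same lineage, Mrc1 and Stab1 by lymphatic and sinusoidal endothelium, and Maf by T cells and others.

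The upstream sequences of 4 members are shown because they carry the largest positive differences (Cd163, Pf4 and Mrc1) or matches of both motifs that were searched (Stab1). Cbr2 also matched both, but its TCAGCA began at base 42 after the start, outside the bases shown. Each line gives the 250 bases before the RefSeq start site, 5′ to 3′ on the gene's own strand (GRCm38.p6). Capitals mark matches of TGCTGA, a part of the Maf recognition element, and of GAGGAA, a core bound by the macrophage factor PU.1, or their reverse complements TCAGCA and TTCCTC.
Stab1, chr14:31168642-31168891, minus strand: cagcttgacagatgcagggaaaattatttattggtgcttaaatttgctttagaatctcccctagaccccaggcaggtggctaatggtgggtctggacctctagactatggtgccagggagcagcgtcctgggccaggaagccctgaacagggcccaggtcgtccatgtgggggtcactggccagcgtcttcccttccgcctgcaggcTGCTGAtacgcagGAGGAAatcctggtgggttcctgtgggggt
Mrc1, chr2:14229164-14229413, plus strand: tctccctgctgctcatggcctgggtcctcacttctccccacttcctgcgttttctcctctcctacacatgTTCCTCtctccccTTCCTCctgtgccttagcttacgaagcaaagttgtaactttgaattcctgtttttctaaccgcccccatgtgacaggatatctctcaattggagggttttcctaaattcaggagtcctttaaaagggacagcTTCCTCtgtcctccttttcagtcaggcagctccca
Pf4, chr5:90772185-90772434, plus strand: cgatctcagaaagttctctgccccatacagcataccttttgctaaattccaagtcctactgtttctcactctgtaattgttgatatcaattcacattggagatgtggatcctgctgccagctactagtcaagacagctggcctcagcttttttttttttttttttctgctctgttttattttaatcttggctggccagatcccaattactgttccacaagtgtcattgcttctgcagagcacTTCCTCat
Cd163, chr6:124304401-124304650, plus strand: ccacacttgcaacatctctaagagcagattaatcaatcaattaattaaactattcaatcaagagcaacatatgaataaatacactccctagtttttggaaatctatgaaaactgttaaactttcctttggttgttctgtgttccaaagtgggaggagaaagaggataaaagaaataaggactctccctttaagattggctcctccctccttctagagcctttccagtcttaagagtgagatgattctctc

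The search covered 250 bases before and 50 after each start, on both strands, in the promoters of 9 members, and no promoter of Maf was used. TGCTGA was found for 4 of the 9, Folr2, Timd4, Cbr2 and Stab1, and in 19.5% of all 32851 promoters, or 21.7% of genes. GAGGAA was found for 5 of the 9, Mrc1, Pf4, F13a1, Cbr2 and Stab1, and in 28.3% of all promoters, or 31.3% of genes. In the Stab1 promoter the matches began 43 and 30 bases before the start. In that of Mrc1 the 3 matches of TTCCTC began 180, 167 and 35 bases before it. The Cd163 and Gas6 promoters held neither motif, and Cd163 was the member with the largest difference. A match describes the letters of this window and is not evidence of binding.

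In mutant valves Cd163, Pf4 and Mrc1 had more TPM than in wild-type valves, by 1.54, 1.39 and 1.28 times, Gas6 had 0.849 times the wild-type TPM, and the others differed less. None of these differences reached 2-fold. The 10 members spanned a wide range of abundance and kept one order in both pools, from Gas6 at the top through Pf4, Cbr2, Stab1, Mrc1, F13a1, Folr2, Maf and Cd163 to Timd4. Their mean TPM ran from 6.20 for Timd4 to 286 for Gas6, a 46.2-fold range, and all 10 passed the minimum mean of 1 TPM.

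**Figure D1:**
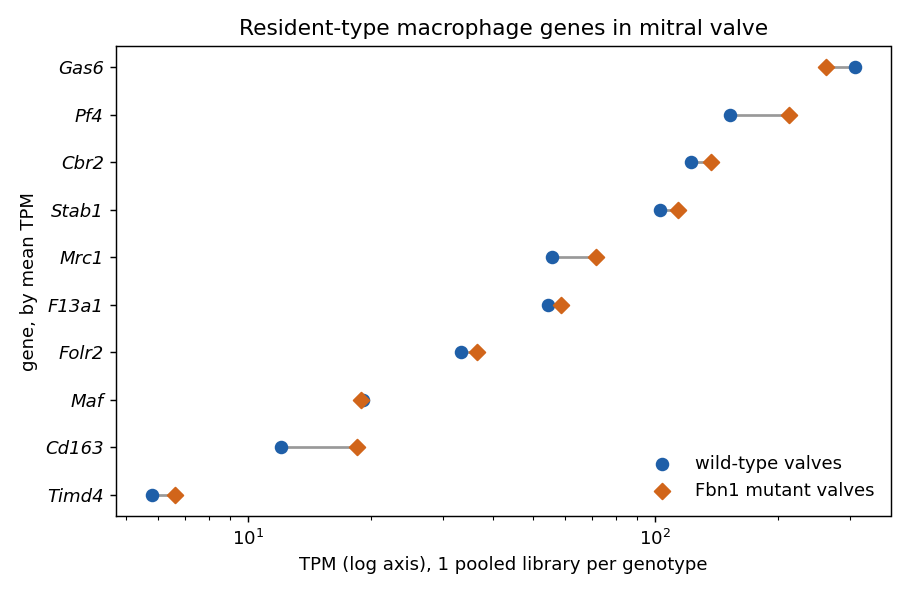
TPM of each of the 10 genes in wild-type (circles) and Fbn1 mutant valves (diamonds), on a log axis, 1 library per genotype. Gas6 is the most abundant gene and is lower in mutant valves, Cd163, Pf4 and Mrc1 are visibly higher, and the 2 marks of Maf almost coincide.

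Summed over the members, TPM was 868 in wild-type valves and 937 in mutant valves, a ratio of 1.08 that became 0.9994 with centring on the median gene. Gas6 alone made up 35.7% of that sum in wild-type valves and 28.1% in mutant valves. Without Gas6 the sums were 558 and 674 TPM, a ratio of 1.21. In bulk tissue, fewer cells of a type and less RNA per cell cannot be told apart.

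Of the surface scavenger and lectin receptors, Cd163 and Mrc1 were higher in mutant valves and Stab1 was nearly level. Cd163, the receptor that clears haemoglobin bound to haptoglobin (ENSMUSG00000008845.9, chromosome 6, 124304656 to 124330527, mm10), was at 12.03 TPM in wild-type and 18.5 TPM in mutant valves. The mutant value was 1.54 times the wild-type one, and on the log2(TPM + 1) scale the difference was 0.58. Among the 500 genes nearest to Cd163 in mean TPM, the central 95% of differences ran from -0.62 to 1.03, and Cd163 stood above 88.0% of them. Mrc1, the mannose receptor CD206, which binds sugars on microbes and on collagen fragments (ENSMUSG00000026712.3, chromosome 2, 14229392 to 14332057), was at 55.6 and 71.4 TPM, a difference of 0.35. It stood above 79.4% of its nearest genes. Stab1, the scavenger receptor stabilin-1 (ENSMUSG00000042286.13, chromosome 14, 31139013 to 31168641), was at 103 and 113 TPM, a difference of 0.14, and stood above 53.8%. Of these 3 receptors, Cd163 and Mrc1 were thus in the upper range of genes of like abundance and Stab1 near the middle.

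The remaining surface proteins differed little between the pools. Folr2, the folate receptor beta, which marks resident macrophages in many tissues (ENSMUSG00000032725.10, chromosome 7, 101839988 to 101857194), was at 33.4 TPM in wild-type and 36.5 TPM in mutant valves, a difference of 0.12. Timd4, a phosphatidylserine receptor that marks long-lived, self-renewing macrophages (ENSMUSG00000055546.6, chromosome 11, 46810800 to 46844332), was at 5.79 and 6.60 TPM, a difference of 0.16. Both were near the middle of their nearest genes, at 45.8% and 50%. Timd4 was the least abundant member, and the central 95% of genes near it was the widest, from -0.78 to 1.72. The directions of both turned under quantile normalization, to -0.03 for Folr2 and -0.02 for Timd4.

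Of the secreted members, Pf4 was higher and Gas6 lower in mutant valves. Pf4, the chemokine platelet factor 4 (ENSMUSG00000029373.7, chromosome 5, 90772435 to 90773383), was at 153 and 213 TPM, 1.39 times as high in mutant valves. Its difference of 0.48 stood above 88.0% of the nearest genes, whose central 95% ran from -0.63 to 0.76. Gas6, the ligand that links phosphatidylserine on dying cells to the TAM receptor kinases (ENSMUSG00000031451.6, chromosome 8, 13465374 to 13494490), was at 310 TPM in wild-type and 263 TPM in mutant valves. Its difference of -0.24 stood above only 17.0% of its nearest genes. Gas6 was thus the member furthest on the lower side, and Cd163 and Pf4 the furthest on the higher side.

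The other members, an enzyme, a clotting factor and a transcription factor, were nearly level. Cbr2, a carbonyl reductase (ENSMUSG00000025150.10, chromosome 11, 120729489 to 120732114), was at 122 and 137 TPM, a difference of 0.16. F13a1, the transglutaminase subunit of factor XIII, which cross-links fibrin (ENSMUSG00000039109.16, chromosome 13, 36867178 to 37050244), was at 54.3 and 58.7 TPM, a difference of 0.11 that became -0.003 with centring and -0.02 with quantile normalization. Maf, the transcription factor c-Maf (ENSMUSG00000055435.6, chromosome 8, 115682942 to 115707794), was at 19.1 and 18.9 TPM, a difference of -0.02. These stood above 57.6%, 50.4% and 34.0% of their nearest genes. All 10 members lay inside the central 95% of the genes nearest to them in abundance.

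**Figure D2:**
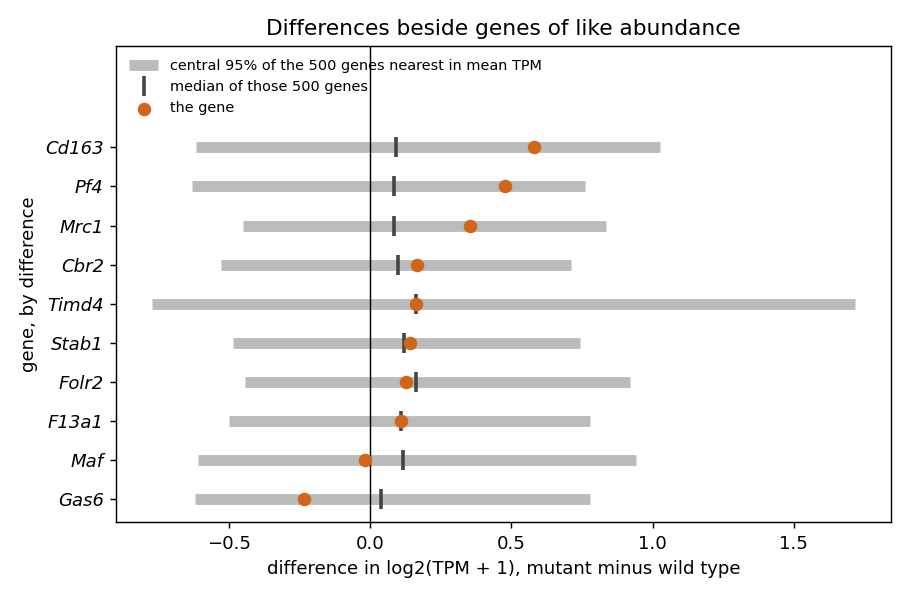
Mutant minus wild-type difference on the log2(TPM + 1) scale of each member (orange), with the central 95% (grey bar) and the median (tick) of the 500 genes nearest in mean TPM. Every orange point lies within its grey bar, with Cd163 and Pf4 towards the right and Gas6 towards the left.

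Of the 10 members 8 were higher by any amount in mutant valves, a direction that 3 of them, Folr2, Timd4 and F13a1, did not keep under every scaling, against 64.9% of all 17004 genes with a mean of at least 1 TPM. No member was at least 2-fold higher, against 4.81% of all genes, and none at least 2-fold lower, against 1.72%. None was at least 1.5-fold higher on this scale, against 15.4%, and none at least 1.5-fold lower, against 4.73%. At a 1.2-fold limit, set after the values were seen, Cd163, Pf4 and Mrc1 were higher, 3 of 10 against 38.3% of all genes, and 0 were lower against 14.1%. With centring or quantile normalization Mrc1 fell short of this limit, leaving 2 higher, and Gas6 passed it on the lower side under each of the 3 scalings. The median difference of the members was 0.15, that of all genes 0.14, and 5 members lay above and 5 below the latter. The median of the members thus lay close to that of all genes.

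The lists of other macrophage and monocyte genes give the frame for these values. The 22 pan-macrophage genes, found in macrophages of any origin, had a median difference of 0.25, with 18 higher and 4 lower. Over all genes the median was 0.14, and 64.9% were higher. Of the 10 resident-type members, 7 lay below the pan-macrophage median. Most of all genes lay below it too, since 38.3% reached the 1.2-fold limit, which is slightly above that median. The most abundant pan-macrophage genes were Lyz2, lysozyme, at 1288 and 1587 TPM, and Fcer1g, an Fc receptor chain, at 265 and 354 TPM. The largest differences in that list were those of the integrin Itgam (21.2 and 40.1 TPM) and the Fc receptor Fcgr1 (3.98 and 7.72 TPM). The 12 monocyte genes had a median of 0.93, and all 12 were higher in mutant valves. Of these, 6 passed the 2-fold limit, against the 4.81% of all genes. Ccr2, the chemokine receptor of incoming monocytes, was at 11.8 and 35.0 TPM, and Ace, which patrolling monocytes and endothelium carry, at 142 and 227 TPM. Plac8 was listed at 0 in wild-type valves and at 5.29 TPM in mutant valves.

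Ratios within a library do not depend on its total. Csf1r, the CSF1 receptor that macrophages need for survival, was at 83.3 TPM in wild-type and 83.8 TPM in mutant valves. Per Csf1r TPM, 8 members were higher in mutant valves and 2, Gas6 (3.72 and 3.14) and Maf (0.230 and 0.225), were lower. With Csf1r level, this count repeats the directions in TPM, in which 64.9% of all genes were higher. Timd4 was at 0.0695 and 0.0788, Folr2 at 0.401 and 0.436, Mrc1 at 0.668 and 0.852, and Pf4 at 1.83 and 2.54. Ccr2 per Csf1r TPM was at 0.141 and 0.418, a ratio 2.96 times as high in mutant valves. Ccr2 per Timd4 TPM was at 2.03 and 5.31. The choice of reference matters, since 4 of the 22 pan-macrophage genes had a lower difference than Csf1r. Per summed TPM of the pan-macrophage genes without Lyz2 (1914 and 2296 TPM), 3 members, Cd163, Pf4 and Mrc1, were higher and 7 lower. The balance between the marker of incoming monocytes and that of long-lived macrophages thus lay further towards Ccr2 in the mutant library, where Ccr2 was higher and Timd4 near level.

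**Figure D3:**
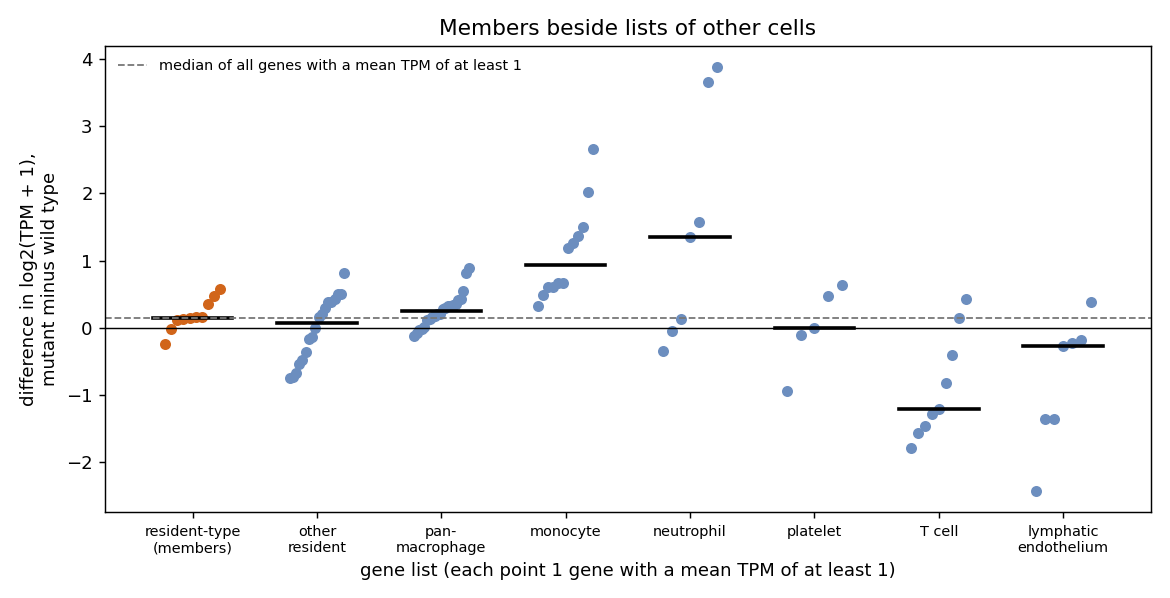
Mutant minus wild-type difference on the log2(TPM + 1) scale of each gene with a mean of at least 1 TPM in 8 gene lists, with the list median (black bar) and the median of all genes (dashed, 0.14). The members (orange) lie between -0.24 and 0.58, the monocyte genes between 0.33 and 2.65, and the T cell genes mostly below 0.

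Other genes of resident macrophages were divided in direction. Of 19 such genes 18 had a mean of at least 1 TPM, of which 9 were higher and 9 lower in mutant valves, with a median of 0.08 that became -0.03 with centring. Over all genes 64.9% were higher. None of the 18 was 2-fold different on the log2(TPM + 1) scale, against 4.81% of all genes that much higher and 1.72% lower. Selenop, which carries selenium, was at 1481 and 1475 TPM, and the growth factor gene Igf1 at 682 and 406 TPM, a difference of -0.75. Fibroblasts express both of these as well. The lectin Cd209d, at 1.59 and 3.54 TPM, had the largest positive difference, 0.81, and was 2.23 times as high on the TPM scale. Lyve1, the hyaluronan receptor of perivascular macrophages and of lymphatic vessels, was at 44.7 and 58.8 TPM. The spread of this list, from -0.75 to 0.81, was wider than that of the 10 members, from -0.24 to 0.58.

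The genes around Gas6 form the route by which dying cells are recognised and taken up. Of 16 such genes, 12 had a mean of at least 1 TPM. In mutant valves 10 of these were higher, against 64.9% of all genes, with a median of 0.20, against 0.14. Axl, the TAM receptor with the highest affinity for Gas6, was at 196 TPM in wild-type and 239 TPM in mutant valves, and Mertk, the TAM receptor of resident macrophages, at 22.7 and 26.4 TPM. Tyro3, the third TAM receptor, was at 3.30 and 9.62 TPM, a difference of 1.30. It was the 1 gene of this list at least 2-fold higher, against 4.81% of all genes. Pros1, the other TAM ligand, was at 60.8 and 64.6 TPM. Lrp1, a large endocytic receptor, was at 235 and 238 TPM, and Havcr2, the TIM family receptor TIM-3, at 15.0 and 23.7 TPM. Gas6 per Axl TPM was at 1.58 in wild-type valves and 1.10 in mutant valves, so that ligand and receptor differed in opposite directions. Gas6 must be carboxylated by a vitamin K dependent enzyme to bind lipid, and the 3 genes of that reaction were nearly level, with Vkorc1 at 249 and 247 TPM, Vkorc1l1 at 52.6 and 46.2 TPM and Ggcx at 38.1 and 36.3 TPM.

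Beside Cd163, genes of haemoglobin and haem handling had no common direction. Of 12 genes 11 had a mean of at least 1 TPM, of which 6 were higher, against 64.9% of all genes, and 5 lower. Their median was 0.01 and was below 0 under each of 3 scalings. Hp, haptoglobin, which delivers haemoglobin to Cd163, was listed at 0 in wild-type valves and at 3.37 TPM in mutant valves. Hmox1, the haem-degrading oxygenase, was at 16.2 and 22.0 TPM. The iron storage genes Fth1 (2745 and 2415 TPM) and Ftl1 (873 and 603 TPM) were lower in mutant valves. The 4 globin transcripts, which come from red blood cells in the tissue, summed to 6774 and 664 TPM, 10.2-fold lower in mutant valves, while Cd163 was higher there. Alas2, the remaining red blood cell marker listed, differed far less, at 27.6 and 23.3 TPM. The part of blood content in the Cd163 value was not tested.

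Pf4 lies 2372 bases from Ppbp, another platelet chemokine gene, and both are textbook platelet transcripts. Ppbp was at 11.6 TPM in wild-type and 5.61 TPM in mutant valves, a difference of -0.94, opposite to that of Pf4. Pf4 per Ppbp TPM was 13.1 and 37.9. The 12 platelet and megakaryocyte markers summed to 32.8 and 33.1 TPM, none was listed at 0 in both pools, and 5 had a mean of at least 1 TPM. Itga2b, the platelet integrin, was at 5.41 and 5.38 TPM, Itgb3, its partner, at 8.16 and 11.7 TPM, and Alox12, a platelet lipoxygenase, at 1.72 and 3.21 TPM. Pf4, at 153 and 213 TPM, was above the sum of this list in both pools. Most genes of the list were of low abundance, and the part of platelets in the Pf4 value was not tested. The chemokine gene Cxcl5, on the other side of Ppbp, was at 7.34 and 15.1 TPM.

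Maf belongs to a family whose large members bind the motif searched above. Of 13 Maf family and macrophage transcription factor genes, 11 had a mean of at least 1 TPM. In mutant valves 8 of these were higher, against 64.9% of all genes, with a median of 0.34, against 0.14. Spi1, which encodes PU.1, was at 25.1 TPM in wild-type and 47.3 TPM in mutant valves, a difference of 0.89. Nr1h3, the oxysterol receptor LXR alpha, was at 9.35 and 5.32 TPM, a difference of -0.71. The most abundant of these, Id3 (221 and 207 TPM) and Mef2c (84.9 and 84.9 TPM), are widely expressed and were nearly level. Maf was thus level while the gene for PU.1, which all monocytes and macrophages express, was higher.

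**Figure D4:**
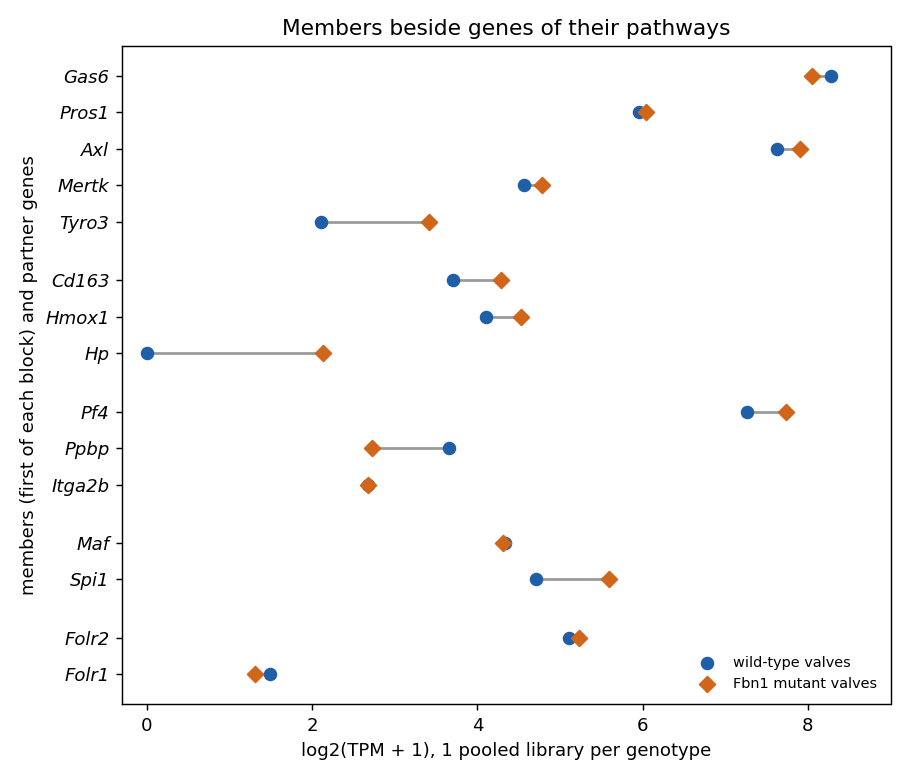
log2(TPM + 1) in wild-type (circles) and mutant valves (diamonds) of Gas6, Cd163, Pf4, Maf and Folr2, each first in its block, with genes of their pathways. Gas6 is lower while Axl and Tyro3 are higher, Pf4 is higher while Ppbp is lower, and Maf is level while Spi1 is higher in mutant valves.

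Relatives and partners of Folr2, Mrc1 and F13a1 differed in both directions. Folr1, the neighbour of Folr2 at a gap of 1137 bases, was at 1.81 and 1.47 TPM, so that Folr2 was the main folate receptor transcript in both pools. Of 7 folate genes 2 were higher, against 64.9% of all genes, and 5 lower. Fpgs was at 32.3 and 43.4 TPM, Ggh at 15.4 and 14.6 TPM and the transporter Slc46a1 at 3.46 and 2.39 TPM. Of the 3 relatives of Mrc1, Mrc2 was at 65.7 and 71.7 TPM, Pla2r1 at 9.27 and 15.9 TPM, and Ly75 had a mean below 1 TPM. The fibrinogen genes Fga, Fgb and Fgg were listed at 0 in both pools, so that the transcripts for the main substrate of factor XIII were not seen beside F13a1, while Fn1, fibronectin, was at 196 and 268 TPM and Tgm2, a tissue transglutaminase, at 43.2 and 53.7 TPM.

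Markers of other cells that can express the members differed between the pools in several directions. The 7 lymphatic endothelial markers summed to 373 and 213 TPM, with 6 of 7 lower in mutant valves, whereas 64.9% of all genes were higher. At least 2-fold lower were 3, against 1.72% of all genes, among them Ccl21a (244 and 94.3 TPM) and Mmrn1 (12.2 and 1.45 TPM). Ccl21a carried most of the fall in the sum. Prox1 (26.7 and 22.6 TPM), Flt4 (22.5 and 18.5 TPM) and Pdpn (18.2 and 15.9 TPM) were only slightly lower. Of the genes that lymphatic endothelium shares, Mrc1 and Lyve1 were higher in the same library and Stab1 was nearly level. The 9 T cell markers summed to 97.9 and 59.9 TPM, with 2 higher, against 64.9% of all genes, and 7 lower. The 8 fibroblast markers summed to 17286 and 14730 TPM, with 4 higher and 4 lower. The sum was carried by Dcn, decorin, at 11409 and 9304 TPM, while the collagen gene Col3a1 was at 760 and 995 TPM. The 6 blood endothelial markers summed to 551 and 569 TPM, although 4 of the 6 were lower. The 10 neutrophil markers summed to 19.1 and 105 TPM, and of the 7 with a mean of at least 1 TPM, 5 were higher and 2 lower. S100a8, S100a9, Csf3r and Cxcr2 were the 4 at least 2-fold higher, against 4.81% of all genes. The 7 dendritic cell markers summed to 42.9 and 70.2 TPM, the 7 mast cell markers to 56.5 and 87.0 TPM, and the 5 cardiac muscle markers to 2167 and 1526 TPM. The 5 red blood cell markers summed to 6801 and 687 TPM, nearly all of it from the globin genes, while Alas2 was at 27.6 and 23.3 TPM. The neutrophil gene Ly6g was the 1 marker of these lists at 0 in both pools. The part of these cells in the members' values was not tested.

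Some values can share reads with an overlapping gene, since no source used here says that reads were counted by strand. Stab1 overlaps the end of Nt5dc2 on the opposite strand, which was at 50.6 and 22.5 TPM. Gas6 overlaps Tmem255b on the opposite strand, at 18.9 and 12.1 TPM. For the other members no overlapping gene in the annotation had a value above 0 in the table. All 10 members are autosomal and lie on 8 chromosomes. The 4 Y-linked genes Ddx3y, Eif2s3y, Kdm5d and Uty summed to 101 and 143 TPM, and the part of unequal male tissue in the members' values was not tested. Fbn1 itself was at 108 and 126 TPM, which does not check the genotype, since the allele replaces an amino acid.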

How the data were processed

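The deposited table holds 1 TPM value per gene symbol and library, calculated by the authors, per the file header. Trimmomatic, HISAT2, kallisto and the mm10 genome are named in the submitters' processing notes, while the role and version of each and the gene annotation are not given. RNA was amplified before library preparation, per the labels' protocols, and no molecular identifiers are named, so low TPM values can rest on few molecules.

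Columns were assigned to libraries by the genotype in their names. Differences were taken on log2(TPM + 1) (pseudocount 1) among the 17004 genes with a mean of at least 1 TPM, using Python 3.11.15 and pandas 2.3.3, after the calculation was tested on simulated data. With 1 library per genotype no test was run. Each member was also placed among the 500 genes nearest in mean TPM. Gene positions came from GENCODE M21 (mm10) and promoters from RefSeq (GRCm38.p6). The ratios to summed pan-macrophage TPM were added after the data were seen. The members and 22 gene lists were chosen with earlier results of these data known. Named were all members, Fbn1, and from each list the 2 most abundant genes and the 2 with the largest difference among those with a mean of at least 1 TPM. Of the cell type lists only those set beside a result name genes. Csf1r, Lyve1, Mertk, Pros1, Hmox1, Folr1, Itga2b, Dcn, Col3a1, the neutrophil genes, the globin genes, the Y-linked genes, the genes of factor XIII partners listed at 0, and genes neighbouring or overlapping members were chosen after their values were seen. Alas2, Prox1, Flt4 and Pdpn were also named after their values were seen. Each result was recomputed with pseudocounts of 0.1 and 5, without the filter and with a minimum of 5 TPM, centring on the median of genes with at least 10 TPM, quantile normalization, and TPM rescaled after removal of globin, ribosomal protein, mitochondrial and Rik or predicted genes. Some items of the lists are not reported here.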

Additional observations from a re-analysis of the deposited data

How the results depend on the processing

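No paired analysis was possible because each genotype has 1 library. The members' median difference of 0.15 ran from 0.01 to 0.15 over 7 alternatives, being 0.041 with centring and 0.0053 with quantile normalization. In all, 7 members kept their sign under all 3 scalings. Folr2 (-0.029) and Timd4 (-0.019) turned with quantile normalization, and F13a1 turned with it (-0.016) and with centring (-0.0026). The ratio of summed TPM became 0.9994 with centring. With a pseudocount of 0.1, Cd163 was at least 1.5-fold higher, 1 member in place of 0, and under each of the 3 scalings 1 member, Gas6, was at least 1.2-fold lower in place of 0. The median of all genes, 0.14, was 0.032 with centring, -0.014 with quantile normalization and 0 without the filter. List medians that moved by over 0.1 follow, not all of them with values. Of the other cells, the neutrophil median ran from 0.25 to 2.62 and that of T cells from -1.43 to -0.69. For red blood cells it ran from -3.43 to -0.29, the last without globin genes. The platelet median changed sign and ran from -0.20 to 0.14. Medians of the dendritic, mast, lymphatic, blood endothelial, fibroblast and cardiac muscle lists moved too. Centring subtracts 0.11 from every difference by construction. It gave medians of -0.033 for other resident genes, 0.14 for pan-macrophage, 0.82 for monocyte, 0.090 for uptake, -0.18 for carboxylation, -0.10 for haem, -0.14 for folate, 0.31 for mannose receptor, 0.27 for factor XIII, 0.23 for transcription factor, 0.10 for CSF1 and cytokine and 0.18 for alternative activation genes. Quantile normalization gave 0.13 for pan-macrophage, 0.77 for monocyte, 0.069 for uptake, -0.21 for carboxylation, -0.13 for haem, -0.20 for folate, 0.29 for mannose receptor, 0.27 for factor XIII, 0.19 for transcription factor, 0.078 for CSF1 and cytokine and 0.16 for alternative activation genes. The monocyte median was 1.13 with a pseudocount of 0.1, 0.55 with 5 and 0.64 with at least 5 TPM. With no filter the mannose receptor median was 0.12 and that of factor XIII partners 0, because genes at or near 0 entered. Rescaling gave 0.072 for the mannose receptor list. No replicate bounds the size of any difference, and depth is unknown.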

Other observations

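Signals that maintain or polarise resident macrophages were also measured. Of 14 genes of CSF1, IL-4, IL-10 and glucocorticoid signalling, 11 had a mean of at least 1 TPM. Of these, 8 were higher in mutant valves, against 64.9% of all genes, and 3 lower. Their median difference was 0.21, against 0.14 for all genes. Csf1, the growth factor of macrophages, was at 106 TPM in wild-type and 112 TPM in mutant valves, beside a level Csf1r. Il34, the other ligand of that receptor, was at 1.41 and 2.07 TPM. Stat3, which acts downstream of IL-10 and IL-6, was at 98.0 and 134 TPM, and Il10rb, a shared receptor chain, at 24.2 and 37.5 TPM. The cytokine gene Il4 was at 5.45 and 2.96 TPM.

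Genes of alternative activation, a state driven by IL-4, were divided. Of 8 such genes 7 had a mean of at least 1 TPM. Of these, 5 were higher, against 64.9% of all genes, and 2 lower. Their median was 0.29, against 0.14 for all genes. Ccl17, a chemokine that dendritic cells also make, was at 35.5 and 81.4 TPM. Chil3, which monocytes and neutrophils also express, was at 0.121 and 3.56 TPM. Both were at least 2-fold higher, against 4.81% of all genes. The lectin Mgl2 was at 37.0 and 45.5 TPM, Arg1, arginase, at 5.59 and 3.83 TPM, and Ccl24 at 7.02 and 4.77 TPM. Il34, Arg1 and Ccl24 were named after their values were seen.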
